A study of Mus musculus with 8 samples.

Results

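The genes described here build and service the primary cilium and the centrosome. They were taken from the deposited table by symbol alone, as every gene named Ift, Bbs, Tctn, Mks or Cep followed by a digit, or Dync2. The rule found 63 of 14126 genes. Of these, 28 act in ciliary transport and gating (14 Ift, 8 Bbs, 4 Tctn or Mks and 2 Dync2 genes), and 35 are Cep genes, named for centrosomal proteins. All 63 passed the filter on low values.

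The measurements were bulk RNA sequencing of pancreatic islets of NOD/ShiLtJ mice aged 7 weeks, a strain prone to autoimmune diabetes. There were 8 libraries, 4 from mice labelled WT, which carried the floxed allele IRE1αfl/fl, and 4 from mice labelled KO, IRE1αβ-/-, read here as deletion of that allele in beta cells. IRE1α, encoded by Ern1, is an endoplasmic reticulum stress sensor. Tamoxifen, prepared at 10 mg/ml, was injected on 5 days to induce Cre, and the labels do not name the promoter that drove Cre. The values, which the authors normalized from counts and then rounded, are given below as deposited normalized values. Sequencing depth is unknown, so precision rests on the spread between 4 mice per label.

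A primary cilium is a single antenna-like projection that most islet endocrine cells carry. It grows from a basal body, which is a modified centriole. Intraflagellar transport (IFT) trains carry cargo along its axoneme: the IFT-B complex travels outward with kinesin-2, and the IFT-A complex works with dynein-2 on the way back. The BBSome links membrane receptors to the trains, and the transition zone at the base, which holds the Tctn and Mks proteins, controls what enters. Cep proteins serve centriole duplication, the pericentriolar matrix, basal body docking and, in some cases, the axoneme itself.

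Many cilium genes carry an X-box, the site of RFX transcription factors, near their start. The motif searched was GT, any pair of bases, CC, then 1 to 3 bases, GG, any pair of bases and AC (GTNNCCNGGNNAC, GTNNCCNNGGNNAC or GTNNCCNNNGGNNAC). It is a palindrome, so a match covers both strands. RefSeq windows of 300 bases on GRCm38.p6, spanning each gene start, were found for 54 of the 63 genes, and 14 of these held a match (25.9%). The share was 9 of 24 for the transport genes (37.5%) and 5 of 30 for the Cep genes (16.7%). Over all 27025 promoter windows it was 4.00%, and over the 10539 windows of genes tested in the islets it was 5.09%. The motif was chosen because it is known for this gene class. A match is a description and not a bound site.

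Of the genes with a match, Tctn3 and Mks1 fell in the libraries labelled KO and Cep41 rose. Their sites differed in the spacer between CC and GG, with 1 base in Tctn3, 2 in Mks1 and 3 in Cep41. A link between site and direction was not tested. The windows of these genes are shown because they passed the test between labels. They run 5′ to 3′ on the strand of the gene, with the X-box match in capitals. The Tctn3 window is chr19:40612182-40612481 on the minus strand, with the first base of the site 140 bases before the start. The Mks1 window is chr11:87852965-87853264 on the plus strand, with the first base of the site 24 bases before the start. The Cep41 window is chr6:30693700-30693999 on the minus strand, with the first base of the site 131 bases before the start.
Tctn3: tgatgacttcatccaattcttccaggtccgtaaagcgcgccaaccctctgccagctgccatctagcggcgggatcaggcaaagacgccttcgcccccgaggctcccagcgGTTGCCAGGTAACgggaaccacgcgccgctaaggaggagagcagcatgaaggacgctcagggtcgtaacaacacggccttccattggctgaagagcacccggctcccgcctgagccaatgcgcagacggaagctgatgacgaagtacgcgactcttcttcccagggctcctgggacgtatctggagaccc
Mks1: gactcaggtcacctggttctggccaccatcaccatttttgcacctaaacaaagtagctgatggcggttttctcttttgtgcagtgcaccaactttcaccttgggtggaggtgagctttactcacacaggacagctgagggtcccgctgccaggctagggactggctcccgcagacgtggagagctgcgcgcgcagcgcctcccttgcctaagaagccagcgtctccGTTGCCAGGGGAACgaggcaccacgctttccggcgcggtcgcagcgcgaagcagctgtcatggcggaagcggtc
Cep41: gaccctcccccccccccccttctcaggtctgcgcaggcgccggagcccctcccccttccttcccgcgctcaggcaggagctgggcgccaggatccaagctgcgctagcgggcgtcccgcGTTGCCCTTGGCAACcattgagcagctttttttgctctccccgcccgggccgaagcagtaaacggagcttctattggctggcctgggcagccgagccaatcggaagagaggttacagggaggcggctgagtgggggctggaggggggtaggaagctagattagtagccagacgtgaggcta
The other 11 genes with a match were Bbs1, Bbs4, Bbs7, Ift22, Ift57, Tctn1, Tctn2, Cep19, Cep44, Cep83 and Cep112, and none of them passed the test between labels. Among transport genes with a window, 2 of the 7 that fell held a match, against 7 of the 17 that did not pass. Ift22 and Ift57 held 2 matches each.

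Ern1 came out at 4500 to 5549 in the WT libraries and 6922 to 7390 in the KO libraries, a log2 difference of 0.54 ± 0.08 (SE; adjusted p = 0.00234 by limma). The direction goes against the label, but a total over all exons does not check the deletion of part of a gene, so the groups are called by their labels throughout. The beta cell hormone gene Ins1 was abundant in all libraries, at 1742193 to 1985505 in WT and 672336 to 1063003 in KO. The libraries numbered 3 and 4 stood apart from those numbered 1 and 2 under both labels: 18 of 20 immediate early genes were higher in them, with sums of 11457 to 28393 in libraries 1 and 2 and of 192020 to 379060 in libraries 3 and 4. The labels do not say what the numbers mean. The main results are therefore also given within each pair of numbers.

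The transport genes that passed the test with the deposited values were all lower in KO. A gene is said to have risen or fallen where limma's adjusted p over all 14121 genes tested was under 0.05, and log2 differences, here and below, are fold changes of KO over WT on the scale of log2(value + 1). Of the 28 transport genes 8 fell, none rose and 20 did not pass. Over all genes tested, 9.81% fell and 11.1% rose, 20.9% in all. The median log2 difference of the 28 was -0.12, beside -0.0008 for all genes, and 19 of the 28 lay below 0. At an unadjusted p under 0.05 there were 9 lower and 3 higher, beside 16.7% and 18.3% of all genes. In 9 of the 28 every KO library was below every WT library, and in 2 every KO library was above; over all genes these shares were 12.3% and 13.6%, together 25.9%. In the authors' deposited table, 6 of the 28 were lower and none higher at an FDR under 0.05, against 13.1% and 16.2% of all genes. When totals were taken without hormone and mitochondrial genes, 5 fell and 1 rose, and with upper-quartile scaling 5 fell and 2 rose. Over all genes, 1017 fell and 1745 rose with the former scaling, and 1073 fell and 1849 rose with the latter. The share of higher genes among all calls was 53.0% with the deposited values and 63.2% and 63.3% under these scalings.

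**Figure D1:**
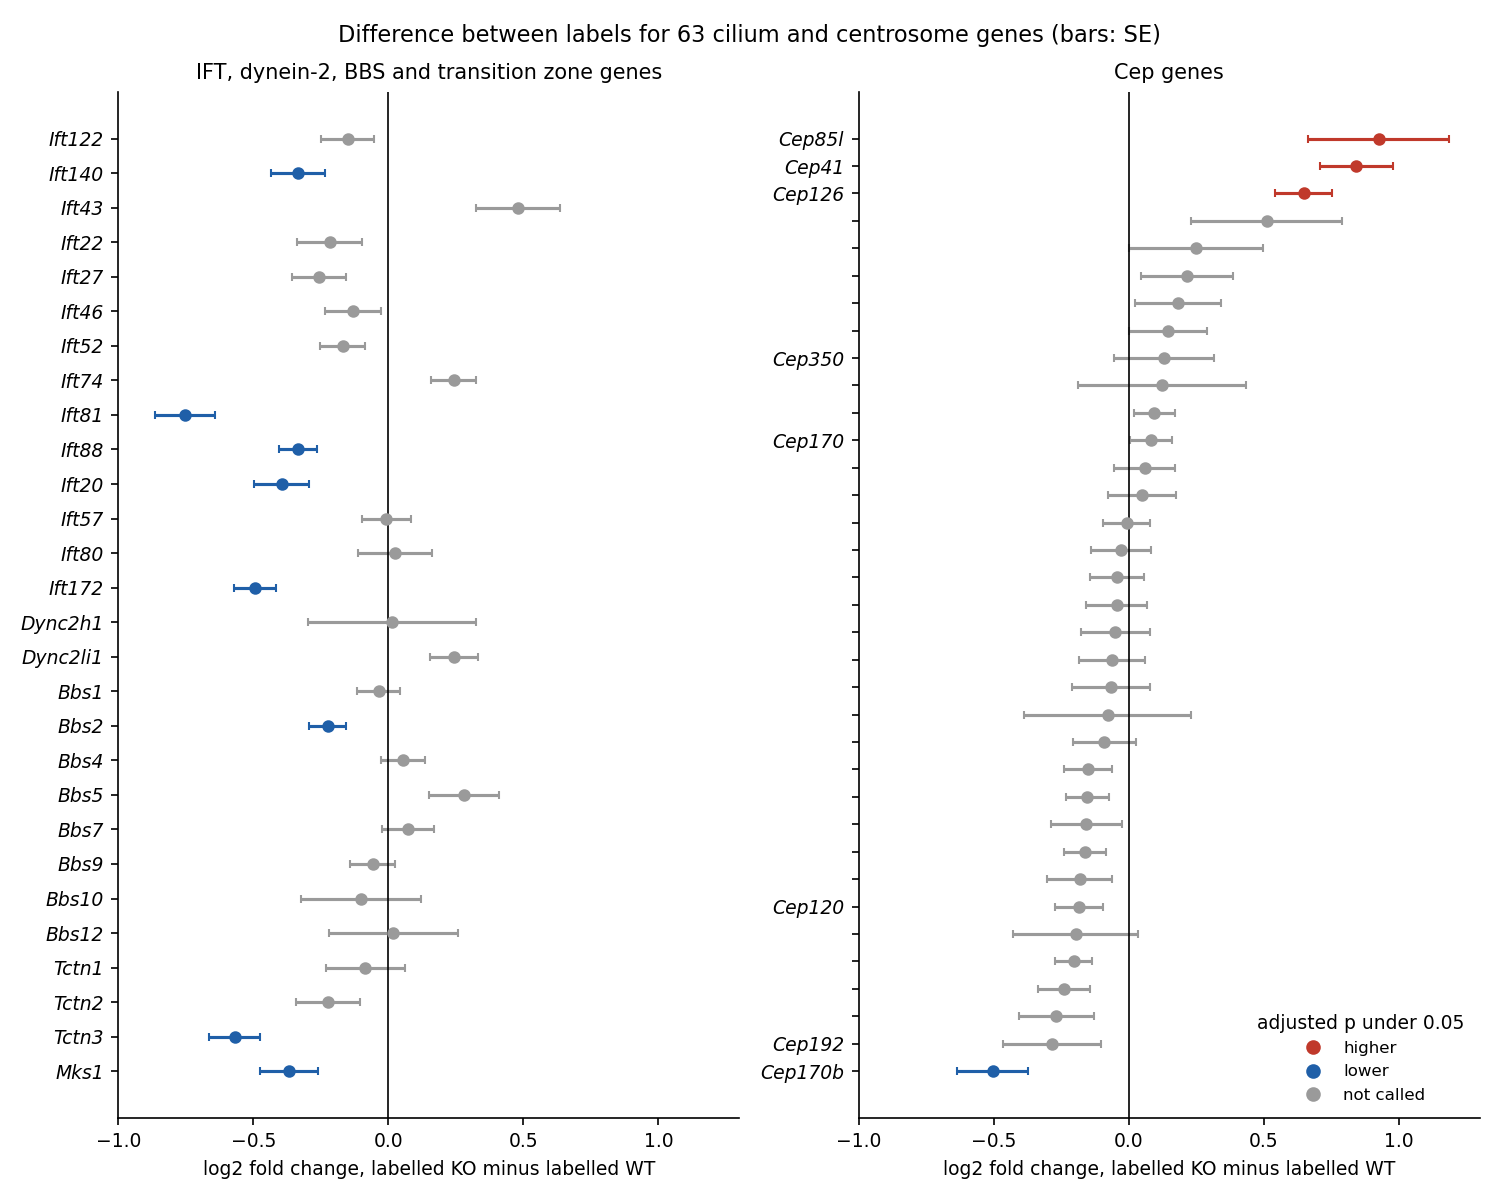
Log2 fold change between libraries labelled KO and WT for each of the 63 genes (points) with its standard error (bars), transport genes on the left by complex and Cep genes on the right by size, with names for those that passed and the 4 most abundant others. Colours mark genes past an adjusted p of 0.05: 8 transport genes lie below 0, and among Cep genes 3 lie above 0 and 1 below.

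The Ift family held most of the falls, 5 of 14, with a median log2 difference of -0.19. Of the IFT-B core, which binds cargo and forms the backbone of the train, Ift81 had the largest difference among the 28 transport genes. With Ift74, Ift81 forms the module that binds tubulin, the main cargo of a growing axoneme. The gene lies on chr5:122550204-122614518, minus strand. Ift81 measured 4136, 3777, 3295 and 3210 in WT libraries 1 to 4 and 1935, 1967, 2451 and 2201 in KO libraries 1 to 4. The groups did not overlap, and the gap was widest in the libraries numbered 1 and 2. KO libraries averaged 59.4% of WT, a log2 difference of -0.75 ± 0.11 (SE; adjusted p = 0.00203). Within libraries 1 and 2 it was -1.02 and within libraries 3 and 4 it was -0.49; the test of that difference gave an adjusted p of 0.109.

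Ift88, whose loss in mice shortens cilia and causes cystic kidneys, fell to 79.4% of WT. It measured 1282, 1328, 1303 and 1245 in WT and 1014, 974, 1100 and 1008 in KO, a log2 difference of -0.33 ± 0.07 (SE; adjusted p = 0.0104). The groups were separate and narrow. Libraries 1 and 2 gave -0.39 and libraries 3 and 4 gave -0.27, where the adjusted p was 0.0913. The other IFT-B core genes did not pass: Ift74 had a log2 difference of 0.24 (adjusted p = 0.0734), Ift27 of -0.26 (0.104), Ift22 of -0.22 (0.242), Ift52 of -0.17 (0.187) and Ift46 of -0.13 (0.404). Ift27, the small GTPase of the complex, was lower in every KO library, at 256 to 272 against 288 to 343.

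Among the peripheral IFT-B genes, Ift172 and Ift20 fell and Ift57 and Ift80 did not. Ift172, a large subunit at the edge of the train on chr5:31253277-31291116, measured 1106, 1214, 1193 and 1037 in WT and 774, 809, 833 and 807 in KO. The KO libraries lay close together and all below WT, with a log2 difference of -0.49 ± 0.08 (SE; adjusted p = 0.00276). Libraries 1 and 2 alone gave -0.55, and libraries 3 and 4 alone -0.44. Ift20, which also sits at the Golgi and helps send membrane proteins to the cilium, measured 2396, 2214, 1997 and 2244 in WT and 1473, 1874, 1856 and 1551 in KO. The groups came close, between WT library 3 and KO library 2, and the log2 difference was -0.40 ± 0.10 (SE; adjusted p = 0.0253), with -0.47 for libraries 1 and 2 and -0.32 for libraries 3 and 4. Ift57 (1477 to 1834 in WT, 1507 to 1731 in KO) and Ift80 (1285 to 2046 in WT, 1568 to 1791 in KO) overlapped fully, with log2 differences of -0.01 and 0.02.

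The IFT-A genes, which serve the return journey and the import of receptors, had differences of both signs. Ift140, part of the IFT-A core, measured 1276, 1245, 1084 and 1003 in WT and 960, 965, 878 and 839 in KO, with a log2 difference of -0.33 ± 0.10 (SE; adjusted p = 0.0433). The groups were separate by a small margin, and the pairs of numbers gave -0.39 (1 and 2) and -0.28 (3 and 4). Ift43 was low in all libraries, at 79, 100, 85 and 81 in WT and 137, 124, 105 and 117 in KO, and every KO value was above every WT value. Its log2 difference of 0.48 did not pass (adjusted p = 0.0582), but passed with upper-quartile scaling (0.0465). Ift122, another core gene, had a log2 difference of -0.15 (adjusted p = 0.315).

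The opposite signs of Ift81 and Ift74 were noticed after their values were seen, and are given as a description. The log2 ratio of Ift81 to Ift74 was 2.26, 2.21, 2.01 and 1.80 in WT libraries 1 to 4 and 0.96, 1.11, 1.24 and 1.01 in KO libraries 1 to 4. Its mean was 2.07 ± 0.21 (SD, n = 4) in WT and 1.08 ± 0.12 (SD, n = 4) in KO, a difference of -0.99. Libraries 1 and 2 alone gave -1.20, and libraries 3 and 4 alone -0.79. A ratio shows that the genes differed unequally, not which of them changed.

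**Figure D2:**
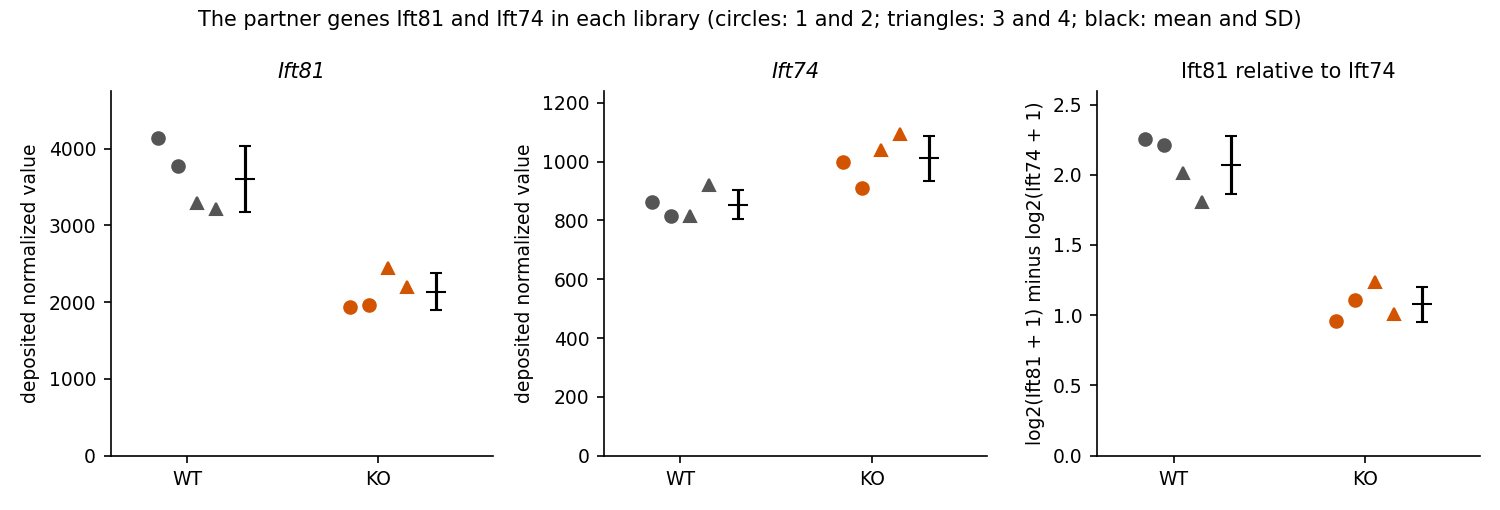
Deposited normalized values of Ift81 and Ift74 in each library and the log2 ratio of Ift81 to Ift74 (right panel), by label, with mean and SD of 4 libraries in black. Ift81 is lower in all KO libraries, Ift74 values of the labels overlap, and the ratio lies at 1.80 to 2.26 in WT and 0.96 to 1.24 in KO.

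Neither Dync2 gene passed the test. Dync2li1, the light intermediate chain of the return motor, measured 570 to 678 in WT and 704 to 810 in KO, without overlap (log2 difference 0.24, adjusted p = 0.0842). Dync2h1, its heavy chain, had a log2 difference of 0.01 and differed instead between library numbers, as described below.

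Of the 8 Bbs genes only Bbs2 passed, and their median log2 difference was -0.01. Bbs2, a core subunit of the BBSome, measured 1046, 1060, 1121 and 1119 in WT and 955, 946, 928 and 889 in KO, a log2 difference of -0.22 ± 0.07 (SE; adjusted p = 0.0455). All KO values were lower, but the difference is small: KO averaged 85.6% of WT, with log2 differences of -0.15 for libraries 1 and 2 and -0.30 for libraries 3 and 4. With the replicate numbers as a block the adjusted p was 0.0735, and in the authors' deposited table the FDR was 0.114. The BBSome subunits Bbs1, Bbs4, Bbs7 and Bbs9 had log2 differences of -0.04, 0.06, 0.07 and -0.06, and Bbs5 one of 0.28 (adjusted p = 0.156). The chaperonin-like assembly genes Bbs10 and Bbs12 had -0.10 and 0.02 with wide errors, at 0.22 and 0.24.

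All 4 transition zone genes had values below 0, and 2 of them fell. Tctn3, whose X-box window is printed above, measured 1200, 1223, 1507 and 1239 in WT and 803, 847, 935 and 887 in KO. KO averaged 67.4% of WT, with a log2 difference of -0.57 ± 0.10 (SE; adjusted p = 0.00376), and libraries 1 and 2 gave -0.55 while libraries 3 and 4 gave -0.58. Mks1, a scaffold of the same gate, measured 284, 309, 325 and 296 in WT and 224, 267, 236 and 215 in KO, with a log2 difference of -0.37 ± 0.11 (SE; adjusted p = 0.0409). The nearest values of the labels, 284 and 267, came close. Libraries 1 and 2 gave -0.28 and libraries 3 and 4 gave -0.46. Tctn1 and Tctn2 had log2 differences of -0.09 and -0.22 and did not pass. A stretch of 19.0% of the Tctn1 exons lies opposite Hvcn1, and the strandedness is not given in the sources used here.

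Dependence on single libraries and settings differed among the 8 falls. Ift81, Ift172 and Tctn3 passed under all 21 alternatives tried, and Ift88 under 20. Ift20 passed under 16 and was lost without WT library 1 or 2, without KO library 1 or 4, and within libraries 3 and 4, with an adjusted p of at most 0.0934. Ift140 passed under 10, and of the 8 fits that each left out a library it passed only in the fit without WT library 4. Mks1 passed under 9, and of those fits only in the fit without KO library 2. Bbs2 passed under 6 and was lost without any of the 8 libraries. All 8 kept a negative sign in libraries 1 and 2 and in libraries 3 and 4. Without WT library 1 or 2, or without KO library 1 or 4, 4 of the 28 genes fell in place of 8.

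**Figure D3:**
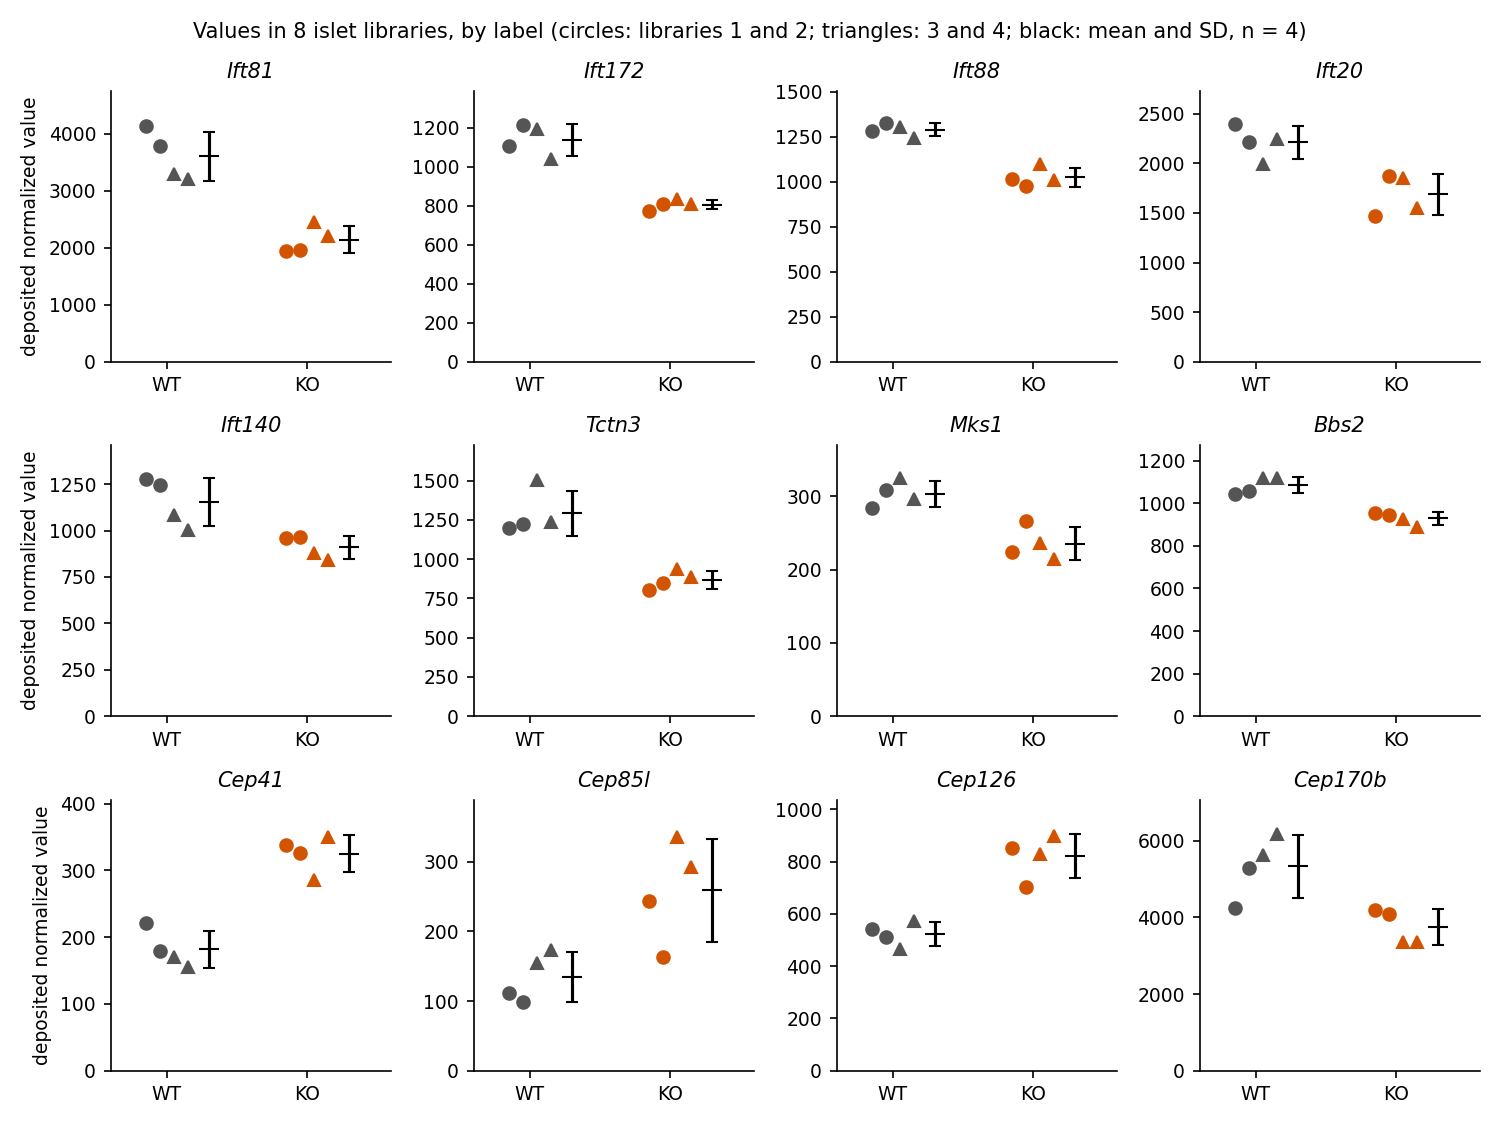
Deposited normalized values of the 12 genes past an adjusted p of 0.05 in each of 8 libraries, by label, from 0; circles are libraries 1 and 2, triangles libraries 3 and 4, and black marks the mean and SD (n = 4). In the upper 8 panels every KO value is below every WT value, while in Cep85l the labels overlap and in Cep170b the libraries numbered 3 and 4 carry most of the gap.

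Most Cep genes differed little between labels. Of 35, 3 rose, 1 fell and 31 did not pass, beside 11.1% of all genes that rose and 9.81% that fell. The median log2 difference was -0.05, and 21 of the 35 lay below 0. In 2 every KO library was above every WT library, and in 3 every KO library was below, beside 13.6% and 12.3% of all genes. Differences smaller than 0.25 on the log2 scale were found for 28 of the 35 (80.0%), for 18 of the 28 transport genes (64.3%) and for 52.4% of all genes. At an unadjusted p under 0.05 there were 3 higher and 3 lower, beside 18.3% and 16.7% of all genes. The authors' deposited table had 3 higher and 2 lower, Cep192 being the added fall.

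Cep41 is a ciliary protein needed for glutamylation of axonemal tubulin. It measured 221, 180, 170 and 156 in WT and 338, 326, 286 and 350 in KO, with no overlap. KO averaged 179% of WT, a log2 difference of 0.84 ± 0.13 (SE; adjusted p = 0.00297), with 0.73 in libraries 1 and 2 and 0.95 in libraries 3 and 4. Cep126, a centrosome and basal body protein, measured 543, 511, 465 and 571 in WT and 852, 701, 830 and 897 in KO, again with no overlap. Its log2 difference was 0.65 ± 0.11 (SE; adjusted p = 0.00325), with 0.55 from libraries 1 and 2 and 0.74 from libraries 3 and 4. Both passed under all 21 alternatives.

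Cep85l, a pericentriolar protein, had the largest difference of all 63 genes but a wide spread. It measured 111, 99, 155 and 174 in WT and 244, 163, 336 and 293 in KO, so KO library 2 lay below WT library 4. The log2 difference was 0.93 ± 0.26 (SE; adjusted p = 0.0353), and the pairs of numbers gave 0.92 (1 and 2) and 0.93 (3 and 4). It was lost without WT library 1 or 2 or without KO library 1, 3 or 4 (adjusted p at most 0.0920), and 5.50% of its exons lie opposite another gene model.

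Cep170b, the paralog of the subdistal appendage protein Cep170, measured 4239, 5281, 5628 and 6174 in WT and 4204, 4092, 3348 and 3347 in KO. Library 1 was alike under both labels, and the gap was wide in libraries 3 and 4. The log2 difference was -0.50 ± 0.13 (SE; adjusted p = 0.0262). Libraries 1 and 2 gave -0.19 (adjusted p = 0.288) and libraries 3 and 4 gave -0.82 (adjusted p = 0.00174), and the test of that difference gave an adjusted p of 0.115. The fall was lost without WT library 2 or 3 or without KO library 3 or 4. Cep170 itself measured 3401 to 4114 in WT and 3904 to 4214 in KO (log2 difference 0.08, adjusted p = 0.502).

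The most abundant Cep genes that did not pass, besides Cep170, were Cep350, Cep120 and Cep192, with log2 differences of 0.13, -0.18 and -0.28. Cep350 anchors microtubules at the centrosome, Cep120 acts in centriole elongation and Cep192 recruits pericentriolar material. Every KO library was below every WT library for Cep63 (653 to 766 against 769 to 823) and Cep85 (875 to 930 against 1005 to 1101), but their adjusted p values were 0.205 and 0.0655. Of 25 markers of dividing cells none passed, and their sums were 4905 to 12848 in WT and 6830 to 8796 in KO. Within libraries 1 and 2, 9 of them were lower in KO, and within libraries 3 and 4, 8 were higher.

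Levels between genes were compared per kilobase of merged exon, in WT means. Ift20 was highest of the 63, at 1451 per kb. Cep170b (666), Ift81 (617), Ift57 (577), Ift52 (460) and Tctn3 (395) followed. The lowest were Cep72 (5.87), Cep112 (8.62) and Cep128 (8.96), and Tctn1 was the lowest transport gene (28.1). In KO means Ift81 stood at 366 per kb. Its partner Ift74 stood at 321 per kb in WT and 380 per kb in KO.

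The libraries numbered 3 and 4 differed from those numbered 1 and 2 in 8 of the 63 genes, with the label in the model. Lower in libraries 3 and 4 were 7 (6.06% of all genes were lower) and higher was 1, Cep85l, by 0.65 (9.38% of all genes were higher). Dync2h1 had the largest difference. It measured 5082, 5137, 2649 and 2338 in WT libraries 1 to 4 and 4905, 4494, 2912 and 2612 in KO libraries 1 to 4, so it followed the number and not the label. The log2 difference was -0.90 ± 0.08 (SE; adjusted p = 1.28e-04). Bbs10 (-0.55), Cep350 (-0.51), Cep192 (-0.49), Cep295 (-0.43), Cep290 (-0.37) and Cep162 (-0.30) were the other lower genes. Cep290 is a transition zone protein and Cep162 a microtubule-binding protein of the centriole.

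Most of these genes have a long merged exon length, which was noticed after the values were seen. That length joins all annotated exons of a gene and is not the length of the transcripts present. All 11 genes of the 63 with over 10000 bases of merged exon had values below 0 in this comparison, and 6 of them passed. Over all 1394 such genes, 68.4% were below 0 and 21.2% passed as lower. Among the 63, Pearson's r between this difference and the log length was -0.28 and Spearman's rho -0.28 (n = 63 genes measured in the same 8 libraries). Over 14112 genes r was -0.13 and rho -0.08. Between labels, r with length was 0.05 for the 63 genes. The part of RNA quality in this pattern was not tested. No gene of the 63 passed the test that the difference between labels depended on library number, which 0.0991% of all genes, 14 in number, passed; at an unadjusted p under 0.05 there were 5 transport and 6 Cep genes, beside 18.8% of all genes.

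**Figure D4:**
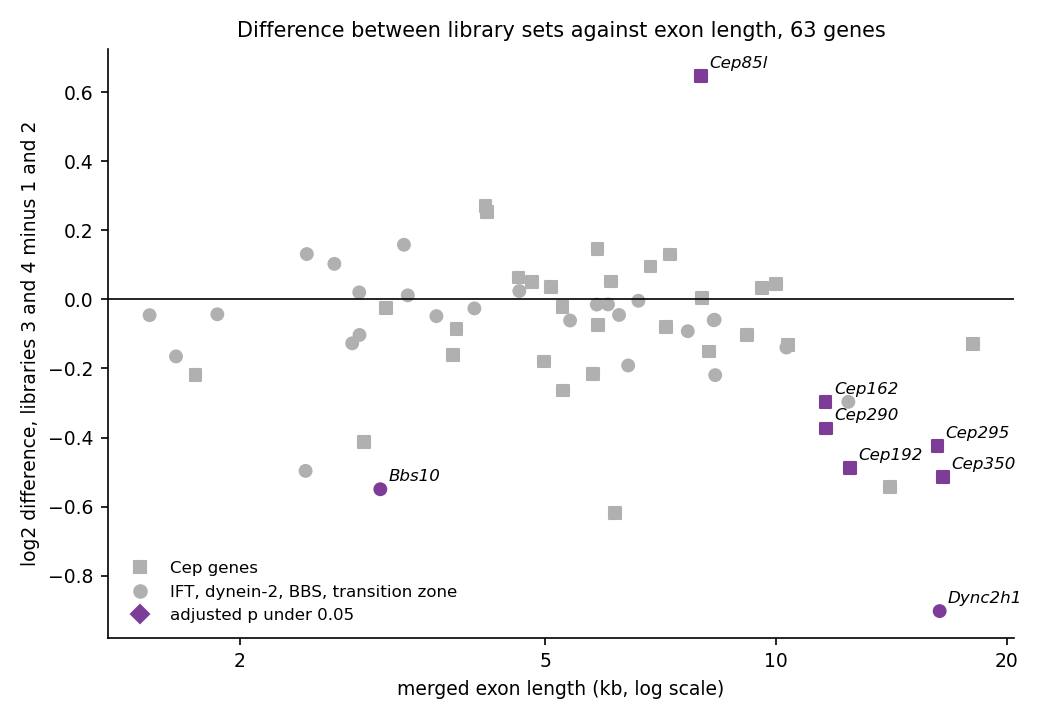
Log2 difference between libraries 3 and 4 and libraries 1 and 2 for each of the 63 genes against its merged exon length in kb (log axis); purple marks an adjusted p under 0.05. All 11 genes over 10 kb lie below 0, with Dync2h1 lowest at -0.90, and Cep85l is the purple point above 0.

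The rest of the pathway was read from 13 lists of other cilium and centrosome genes, without the 63. Counted once each, 197 genes were tested, and 27 rose (13.7%) and 7 fell (3.55%), beside 11.1% and 9.81% of all genes. Among 11 IFT subunits under other symbols none passed; the most abundant, Wdr35 and Ttc26, had log2 differences of -0.18 and -0.27, and at limma's unadjusted p under 0.05 there was 1 lower and 0 higher. Among 8 BBSome genes under other symbols none passed either (Lztfl1 0.12, Ttc8 -0.16; 1 lower and 0 higher unadjusted). Of 22 further transition zone genes, Rpgrip1l (0.41) and Spata7 (0.38) rose and Tmem107 (-0.43) fell. Rpgrip1l was lost in 7 of the 8 fits that each left out a library (all but that without WT library 1), and Spata7 without KO library 4, where no gene of this list rose.

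Of 12 motor genes of kinesin-2 and dynein-2, 3 rose and 2 fell, Tctex1d2 and Dynll2. Kif3a, the kinesin-2 motor that drives IFT-B outward, rose from 665 to 848 in WT to 967 to 1210 in KO (log2 difference 0.56 ± 0.10, SE; adjusted p = 0.00564). The light chains Dynll1 and Dynlrb1 rose by 0.65 and 0.43, while their relative Dynll2 fell, from 1959 to 3295 in WT to 1129 to 1432 in KO (-1.02 ± 0.15, SE; adjusted p = 0.00235). Dynlrb1 was lost without WT library 2 or 3 or KO library 1, and falls in this list were 1 without WT library 1 or 2 or KO library 3 or 4. Dynll1, Dynlrb1 and Dynll2 also serve other dyneins.

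Receptors and signalling genes of the cilium changed in both directions. Sstr3, a somatostatin receptor placed in cilia by the BBSome, fell from 8010.8 ± 432.9 to 4783 ± 300.2 (mean ± SD, n = 4; log2 difference -0.74, adjusted p = 3.55e-04 by limma). Of the 13 genes in this list, 4 rose, among them the fatty acid receptor Ffar4 (1.22), the adenylyl cyclase Adcy3 (0.60) and the orphan receptor Gpr161 (0.57). Of 22 listed Hedgehog pathway genes, Gli1, Gli3, Kif7, Hhip, Shh, Ihh and Dhh were absent from the deposited values. Of the 15 tested 4 rose, the transducer Smo (1.14), Gli2 (1.59), Evc2 (1.27) and Disp1 (0.63), and none fell. With the replicate numbers as a block 2 rose. Without WT library 1 or 3, or KO library 1 or 3, 1 of the 15 rose, without WT or KO library 2 it was 2, and within libraries 3 and 4 it was 1. KO library 1 was high for Smo (549, against 230 to 248 in the other KO libraries) and for Evc2 (219, against 81 to 112). Gli2 was low, at 8 to 22 in WT and 35 to 63 in KO. In a list of 16 genes named for ciliary GTPases and lipid enzymes, the 2 that rose, Dzip1 (0.57) and Dzip1l (0.60), are neither. The rise of Dzip1 was lost without WT library 2, KO library 1 or KO library 4.

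The list of RFX and FOXJ factors left 6 genes to test, all of them RFX genes, and Rfx7 rose (0.54, adjusted p = 0.00290). Foxj1, the only FOXJ factor on the list, was absent from the deposited values, so the list tested no FOXJ factor. Rfx3, known as a regulator of cilium genes through the X-box, had a log2 difference of 0.25 (adjusted p = 0.275); it passed with library number as a term (0.0289), within libraries 3 and 4 (0.0350) and in the authors' deposited table (FDR 0.0385). Of 31 listed axoneme genes of motile cilia 20 were in the deposited values, and of these 4 rose and 1 fell. Drc1 rose by 1.31, Ccdc39 by 1.27 and Dnah11 by 1.26, and Zmynd10, at 34 to 53 in WT and 7 to 13 in KO, fell by 1.95 on the log2 scale. The summed values of that list were 2922 to 3624 in WT and 4605 to 5531 in KO. In the other centrosome lists, 2 of 19 centriole genes rose (Cetn4 0.84, Poc1b 0.46) and Sfi1 fell (-0.70). Of 19 appendage genes 3 rose (Ccdc68 0.75, Ehd3 0.33, Kif2a 0.29) and Cntrl fell (-0.29). Haus3 alone rose among 23 pericentriolar genes (0.51) and Agtpbp1 among 16 tubulin genes (0.24). With the replicate numbers as a block, 2 centriole genes and 2 appendage genes fell, 2 appendage genes rose, and of the tubulin genes none rose and 1 fell. Values of the labels overlapped for Sfi1 (2247 to 3528 in WT, 1281 to 2557 in KO), and its fall was lost in 6 of the 8 fits that left out a library and with upper-quartile scaling (adjusted p = 0.0612). Of those 8 fits, Kif2a, Haus3 and Agtpbp1 were lost in 7 each, Cntrl in 6, Ehd3 in 5, Cetn4 in 1 and Poc1b and Ccdc68 in 0.

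**Figure D5:**
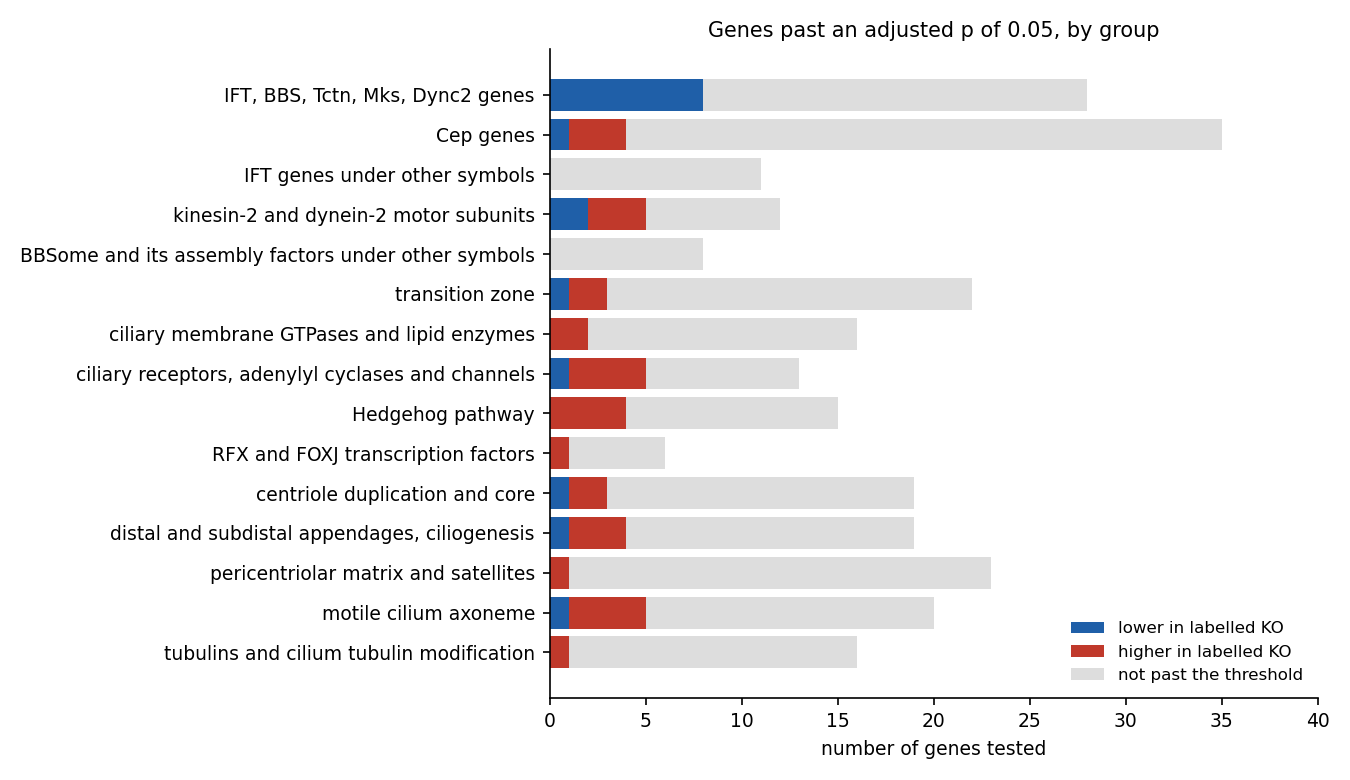
Number of genes tested in each group (bar length) and how many were lower (blue), higher (red) or not past an adjusted p of 0.05 (grey) in libraries labelled KO. Blue without red is seen for the 28 transport genes (8 lower), and the lists of IFT and BBSome genes under other symbols hold neither.

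Markers of islet cell types moved with the label, and their part in these results was not tested. Of 12 beta cell markers 9 fell, with sums of 5381000 to 6023100 in WT and 2549900 to 3498700 in KO; Trpm5 (-2.76) and Ucn3 (-2.10) had the largest differences. Of 10 alpha cell markers 8 rose, with sums of 420260 to 1058900 in WT and 1937900 to 2643100 in KO, led by Gcg (1.74) and Etv1 (1.71). All 7 delta and PP cell markers rose, with sums of 103930 to 170790 and 277800 to 391990, among them P3h2 (1.78) and Pyy (1.49). In bulk islets, fewer cells of a type and less RNA per cell cannot be told apart, and this holds for every cilium gene above.

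Markers of non-endocrine cells differed too. Of 11 ductal markers 5 rose, with sums of 15052 to 18134 in WT and 28787 to 62646 in KO, led by Spp1 (3.12) and Muc1 (1.91). The 11 acinar markers summed to 23968 to 319390 in WT and 158740 to 483120 in KO, and of them Bhlha15 (-0.91) passed, as a fall. In the stellate list 2 of 13 rose (Lum 2.21, Timp1 0.86; sums 13785 to 21637 and 22626 to 36040) and in the Schwann list 2 of 8 (Cryab 1.31, Erbb3 1.09; sums 3670 to 4695 and 3622 to 4955). Of 10 endothelial markers none passed (Kdr 0.15; sums 13661 to 17038 and 14534 to 23343), and of 10 macrophage and lymphocyte markers Cd79a fell (-1.26; sums 4542 to 11255 and 5357 to 8317). None of the 20 immediate early genes passed between labels (Fos -0.10), nor did any proliferation gene (Mki67 0.04); at limma's unadjusted p under 0.05 there were 0 and 1. With the replicate numbers as a block, 10 stellate, 2 acinar, 2 endothelial and 1 proliferation marker rose. Without WT library 3, 7 acinar markers rose, and without single libraries the rises ranged from 2 to 6 in the ductal, 1 to 5 in the stellate and 0 to 2 in the Schwann list. Within libraries 3 and 4, 12 stellate markers rose. Of the 8 fits that each left out a library, Lum and Cryab were lost in 6 each, Muc1 in 4, Erbb3 in 3 and Spp1 and Timp1 in 0. Values of the labels overlapped for Lum (30 to 207 in WT, 184 to 596 in KO). KO library 1 was high for Muc1 (1008, against 143 to 316 in the other KO libraries). The authors' deposited table had 10 acinar, 9 stellate and 9 ductal markers higher.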

How the data were processed

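RNA of pancreatic islets from 8 mice, 4 per label, was sequenced. The authors used edgeR 3.16.15, RSEM 1.2.31, STAR 2.5.3a and bcl2fastq 2.20 with GRCm38.p5, per the submitters' processing notes. The table deposited by the authors gives normalized counts rounded to whole numbers, treated as a score because they are not raw counts (totals 32024139 to 34858983), and the authors' log2 fold changes and log2 CPM, likelihood ratio score, p-value and FDR. The design allowed for counts, which the values are not, so its limma-trend test was used (limma 3.58.1, R 4.3.3) on log2(value + 1) for the 14121 genes that reached 1 in 4 or more libraries, Benjamini-Hochberg adjusted over all genes, with a threshold of 0.05. The fit was tested on simulated data. Fold changes on this scale understate those of low genes.

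Members and lists were chosen with earlier results of these data known. The text names Ern1, every transport gene, the Cep genes that passed and the 4 most abundant that did not, and by the same kind of rule up to 4 genes per pathway list and 2 per marker list. Genes outside it were named after their values were seen: Cep63, Cep85, Cep164, Cep131, Tctex1d2, Ins1 and Rfx3, and the genes named for level, for library number or for an X-box. Older symbols were matched through RefSeq synonyms. Exon lengths and coordinates are from GENCODE M21.

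Same-numbered libraries deviated together (r of 0.327, 0.583, 0.664 and 0.381 across 13081 genes with a mean above 50, which are not independent replicates), each above 0.1, which is the criterion used here for taking numbers as pairs. WT libraries 1 and 4 nevertheless correlated best with KO libraries 2 and 3, and the labels do not state a pairing. The main test has no block, and the fit with the block is an alternative. Alternatives were other pseudocounts and filters, other scalings, the block, a term for library number, each pair of numbers alone, each library left out, no trend, a robust fit and the authors' table.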

Additional observations from a re-analysis of the deposited data

Results flagged for a closer look

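Tctn3 measured 1507 in WT library 3, above the other WT libraries at 1200 to 1239, a gap of 0.873 of the range. Bbs12 measured 257 in KO library 2, above the other KO libraries at 200 to 202 (0.965 of the range). Cep170 measured 4214 in KO library 1, above the others at 3904 to 3935 (0.900 of the range). Each was a library far from the other 3 of its group, past Dixon's critical value. In all, 72 groups of 4 were examined, for 36 genes under both labels, and chance marks about 5% of groups. The fall of Tctn3 passed without WT library 3.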

How the results depend on the processing

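Under 21 alternatives no value of the genes named by rule changed sign past the threshold. The 8 falls among transport genes gave 168 values, of which 124 passed and 44 did not, and the 4 Cep genes gave 84, of which 74 passed and 10 did not. With the replicate numbers as a block, 7 transport genes fell and none rose, 3 Cep genes rose and 1 fell, and over all genes 1999 rose and 1649 fell; Bbs2 (adjusted p = 0.0735) was the call lost among the 63, and the Hedgehog list had 2 rises in place of 4. With library number as a term, 2400 genes rose and 2102 fell; among transport genes 2 rose (Ift43, Ift74), and 3 Cep genes fell (Cep170b, Cep192, Cep85). Transport rises were 1 with totals without hormone and mitochondrial genes (Ift74), 2 with upper-quartile scaling (Ift43, Ift74) and 1 without a trend (Ift43). Transport falls were 5, 5 and 6. Over all genes, in the same order, 1745, 1849 and 1505 rose and 1017, 1073 and 1242 fell. The former 2 settings, which change the scaling, moved the median of all genes by 0.043 and 0.0462. Within libraries 3 and 4 alone, 3 transport genes and 3 Cep genes fell (Cep170b, Cep131, Cep164). In that fit 1621 genes fell and 1618 rose over all genes. The authors' deposited table had 2 Cep falls. The cause of these changes was not tested.

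Leaving out each library in turn gave 1121 to 1684 rises and 863 (without WT library 2) to 1599 falls over all genes, and 909 falls without KO library 4. Transport falls ranged from 4 to 6 with no rises, and Cep rises from 2 to 3. Cep falls ranged from 0 to 1, with 0 without WT library 2 or 3 or KO library 3 or 4; limma's unadjusted p under 0.05 held for 3 Cep falls with all libraries. Fewer libraries entered each of these fits. Depth is unknown, so what it limits cannot be stated for low genes such as Ift43 or Cep72.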
